A study of Mus musculus with 2 samples.

Results

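A set of transcription factor genes known to set the lineage or programme of lymphocytes, 9 of the 31053 genes in the count matrices, was followed through 4 classes of cells sorted from mouse ear epidermis. They were Id2, Id3, Tcf7, Gata3, Rora, Maf, Sox13, Tbx21 and Eomes and were taken by name. The data were single-cell RNA counts from 2 libraries, 1 per treatment, of live CD45+EpCAM-MHC-II- epidermal cells. Both came from wild-type female FVB/NJ mice, 8 weeks old, taken 7 d after intradermal injection of isotype control antibody or of anti-Skint1 antibody. Skint1 is a keratinocyte surface protein that selects the dendritic epidermal T cells (DETCs), the γδ T cells of mouse epidermis. The labels call all sorted cells DETCs, and the study's legend, read with its rule that n values are mice unless stated, gives a single mouse per treatment.

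T cells and innate lymphoid cells (ILCs) share a small set of DNA-binding proteins whose balance directs them to a type 1 (interferon-γ), type 2 (IL-13, amphiregulin) or type 17 (IL-17, IL-22) programme. Id2 and Id3 bind no DNA and act by sequestering E proteins, which hold lymphocyte precursors in an early or adaptive state. T-bet (Tbx21) and Eomesodermin (Eomes) drive type 1 programmes, GATA3 is needed for T cell and ILC development and for type 2 programmes, and RORα (Rora), c-Maf (Maf) and Sox13 are known from ILCs and IL-17-producing γδ T cells, while TCF-1 (Tcf7) is the nuclear factor of Wnt signalling in T cells. In GENCODE vM21 on GRCm38 all 9 are protein-coding genes, and their identifiers are the same in the files. Rora covers chr9:68653786-69388246 and Eomes chr9:118478212-118486132, both on the plus strand. Tcf7 lies at chr11:52252371-52283014 and Tbx21 at chr11:97098071-97115331, both on the minus strand. Id2 lies at chr12:25093799-25097140 (minus), Id3 at chr4:136143497-136145755 (plus), Gata3 at chr2:9857078-9890034 (minus), Sox13 at chr1:133382303-133424377 (minus) and Maf at chr8:115682942-115707794 (minus).

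A barcode was taken as a cell if it held 500 to 2500 genes and no more than 12% of its unique molecular identifiers (UMIs, each marking 1 captured mRNA molecule) were mitochondrial, which left 4242 in the isotype library and 5961 in the anti-Skint1 library. Classes were set by receptor and cytokine genes, none of them a member. DETCs (Trdv4 present, at least 3 CD3 UMIs, no Trac) numbered 3195 and 4231 cells, αβ T cells (Trac present, no Trdv4) 197 and 213, IL-17 γδ T cells (at least 2 UMIs of 5830411N06Rik, Blk and Il17a, and at least 2 of CD3) 84 and 81, and ILCs (at least 2 Il7r UMIs, at most 2 of CD3, no Trdv4 or Trac) 55 and 101. A further 756 and 1375 cells met no rule. The classes held between 259868 UMIs (isotype ILCs) and 16173892 (anti-Skint1 DETCs), so the DETC values are the most precise. Levels are given as counts per 1000000 UMIs of the class (CPM), isotype first, with exact Poisson 95% intervals that cover counting error only. Between genes these levels are not compared.

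Markers of each class were checked before use. Since most markers had a UMI in most classes, their summed levels were compared, with the limit that genes of the class rules (Trdv4, the CD3 genes, Trac, Il7r and the IL-17 γδ rule genes) are in these lists and check nothing. The 9 DETC markers summed to 23107 and 22490 CPM in DETCs and to at most 6004 CPM in any other class. The 9 αβ T markers summed to 3500 and 3083 CPM in αβ T cells, against 2623 and 2232 CPM in DETCs and 2382 and 2318 CPM in IL-17 γδ T cells. IL-17 γδ T cells carried 9 and 8 of 9 markers, with Tcrg-V6 at 0 in the anti-Skint1 library. The summed level of that list was higher in DETCs (4824 and 4003 CPM against 2360 and 2151 CPM), as Trdc, which DETCs share, made up 4781 and 3954 CPM of it there. However, 45 of 84 and 40 of 81 of them met the rule of another class too (16 and 18 that of DETCs, 25 and 17 that of αβ T cells, 4 and 5 that of ILCs), so this class shares cells with each class it is set against. The 11 ILC markers summed to 3459 and 3525 CPM in ILCs, 3084 and 2870 CPM in IL-17 γδ T cells, 2339 and 2304 CPM in αβ T cells and 592 and 598 CPM in DETCs, so this list set ILCs apart from DETCs more than from the other classes. The list holds the rule gene Il7r and the members Gata3 (204 and 262 CPM in ILCs) and Rora (366 and 441 CPM). Its sum is thus in part the result given below and no check of it. ILCs lacked Arg1 in both libraries and Il1rl1 in the isotype library, and had no UMI of Cd4, Cd8a or Cd8b1. The 9 αβ T markers still summed to 1859 and 1930 CPM in ILCs. Only 16 of 55 and 35 of 101 ILCs had neither a CD3 nor a Trdc UMI. Among ILCs, 1 and 3 cells with Cd207 or H2-Aa, genes of Langerhans cells, carried all Cd207 UMIs and 80.1% and 89.2% of the Cd74 UMIs, and those cells held no UMI of Rora, Gata3 or Maf. Of 7 NK cell markers, 1 and 3 were detected in ILCs, at 3.85 and 10.8 CPM in sum, and Eomes was not among them. Only 5 barcodes were kept as cells in both libraries.

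Id2 and Id3 were lowest in DETCs. Id2 stood at 305 CPM (296 to 314) and 320.3 CPM (312 to 329) in DETCs, 822 and 849 CPM in αβ T cells, 684 and 587 CPM in IL-17 γδ T cells and 654 and 591 CPM in ILCs. Both DETC values lay below all 6 values of the other classes. Relative to DETCs, Id2 was higher by 1.51 ± 0.091 (log2 fold change ± SE) in αβ T cells, by 1.14 ± 0.099 in IL-17 γδ T cells and by 1.09 ± 0.10 in ILCs (adjusted p = 2.92e-10, 4.64e-08 and 9.93e-08, edgeR's quasi-likelihood test on 8 class sums). With a mitochondrial limit of 5%, which left 11 ILCs in each library, the ILC call was lost (0.47, adjusted p = 0.225). Among the other classes Id2 was lower in ILCs than in αβ T cells by 0.42 ± 0.10 (adjusted p = 0.0167), a call lost when cells of more than 1 class were left out (-0.40, adjusted p = 0.0601) and with no upper gene limit (-0.37, adjusted p = 0.0843). Id2 in IL-17 γδ T cells against αβ T cells missed the threshold (-0.36, adjusted p = 0.111) and passed it under stricter class rules (-0.66, adjusted p = 0.00532). These tests rest on 2 libraries that are also the treatments, so their spread holds any treatment effect that differs between classes, the fit having library as a term.

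Id3 gave the same order of DETCs against the rest. Its level in DETCs was 18.9 and 21.3 CPM, against 79.9 and 59.8 CPM in αβ T cells, 96.0 and 99.9 CPM in IL-17 γδ T cells, and 46.2 (23.9 to 80.7) and 77.9 CPM in ILCs. It was higher than in DETCs by 1.88 ± 0.21 in αβ T cells, 2.40 ± 0.24 in IL-17 γδ T cells and 1.81 ± 0.28 in ILCs (adjusted p = 6.90e-07, 2.30e-07 and 4.87e-05), the ILC call being lost at the 5% mitochondrial limit (1.53, adjusted p = 0.148). None of the 3 pairs among the other classes passed the test for Id3, although with no upper gene limit ILCs passed above αβ T cells (0.85, adjusted p = 0.0351). In free RNA, read from barcodes with 1 to 100 UMIs that were taken to hold no cell, Id3 stood at 141 CPM in each library, above its level in every class. From 5 keratin genes, cells carried 1.80% to 2.82% of the level in free RNA, which for Id3 came to 2.54 and 3.47 CPM in DETCs. Of the E protein genes that Id proteins bind, Tcf12 was lower in IL-17 γδ T cells than in DETCs by 0.76 ± 0.19 (adjusted p = 0.00534), and Tcf3 passed in no pair. Id1, another Id gene, was higher in ILCs than in DETCs by 1.39 ± 0.30 (adjusted p = 0.00117).

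Tcf7 ran the other way and was highest in DETCs. The DETC levels were 207 CPM (199 to 215) and 214 CPM (207 to 221), against 115 and 115 CPM in αβ T cells, 149 and 129.9 CPM in IL-17 γδ T cells and 131 and 106 CPM in ILCs. Both DETC values lay above all the others. Tcf7 was lower than in DETCs by 0.78 ± 0.12 in αβ T cells (log2 change -0.78, adjusted p = 5.53e-05), by 0.47 ± 0.14 in IL-17 γδ T cells (-0.47, adjusted p = 0.0164) and by 0.75 ± 0.16 in ILCs (-0.75, adjusted p = 9.17e-04). The call against IL-17 γδ T cells was lost with cells of more than 1 class left out (log2 change -0.40, adjusted p = 0.165), at the 5% mitochondrial limit (-0.90, adjusted p = 0.0563) and with DESeq2 (-0.46, adjusted p = 0.0681). That against ILCs was lost under stricter class rules (-0.47, adjusted p = 0.213).

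**Figure D1:**
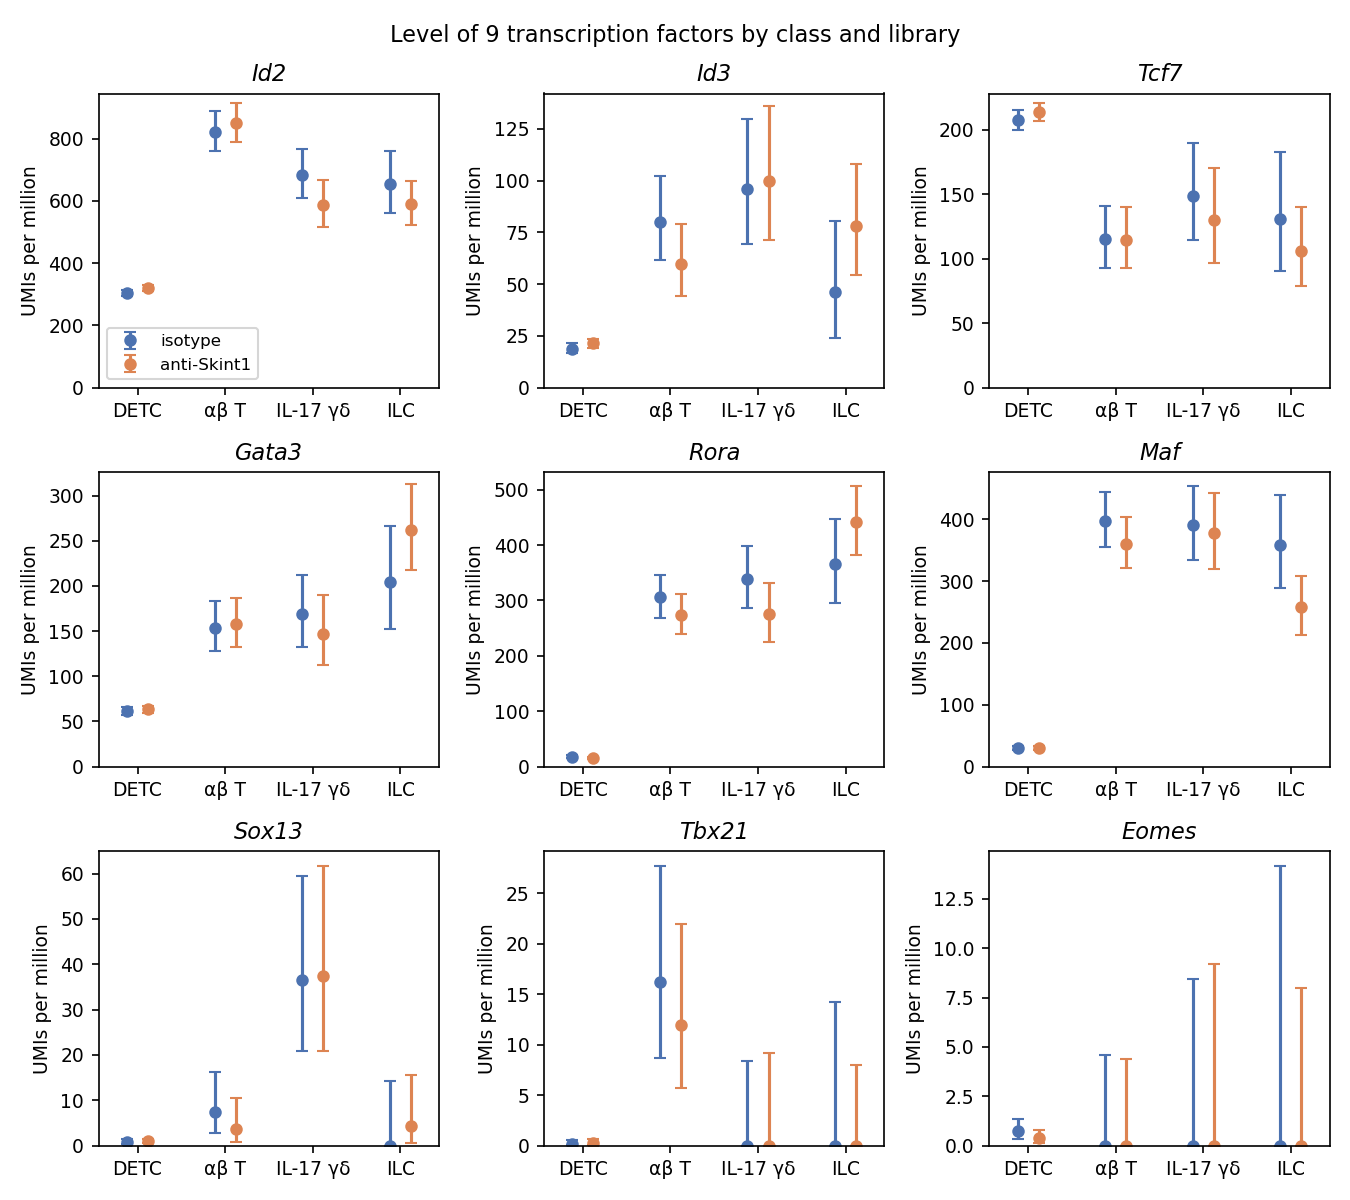
Level of each of the 9 genes in CPM (linear axis from 0, own scale in each panel) by class, with the isotype library in blue and the anti-Skint1 library in orange. Bars are exact Poisson 95% intervals. Tcf7 is highest in DETCs (207 and 214), whereas Id2, Id3, Gata3, Rora and Maf are lowest there, Sox13 peaks in IL-17 γδ T cells and Tbx21 in αβ T cells.

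Gata3 was present in all classes and highest in ILCs. Its level was 61.7 and 63.6 CPM in DETCs, 154 and 158 CPM in αβ T cells, 169 and 147 CPM in IL-17 γδ T cells, and 204 and 262 CPM in ILCs. Relative to DETCs the log2 change was 1.40 ± 0.14 in αβ T cells, 1.46 ± 0.16 in IL-17 γδ T cells and 2.03 ± 0.15 in ILCs (adjusted p = 1.44e-07, 1.14e-06 and 6.16e-09). ILCs were also above αβ T cells by 0.63 ± 0.16 (adjusted p = 0.0233), a call lost under stricter class rules (0.52, adjusted p = 0.424), at the 5% mitochondrial limit (0.06, adjusted p = 0.967) and without cells of more than 1 class (0.63, adjusted p = 0.0540). ILCs and IL-17 γδ T cells did not pass the test for Gata3 (0.57 ± 0.18, adjusted p = 0.119), nor did αβ and IL-17 γδ T cells (0.06 ± 0.17, adjusted p = 0.968).

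Rora separated DETCs from the other classes more widely. DETCs had 18.2 CPM (16.0 to 20.6) and 15.0 CPM (13.2 to 17.04). αβ T cells had 306 and 274 CPM, IL-17 γδ T cells 338 and 275 CPM, and ILCs 366 and 441 CPM. All 6 values outside DETCs were at least 274 CPM. The log2 change over DETCs was 4.22 ± 0.14 in αβ T cells, 4.33 ± 0.16 in IL-17 γδ T cells and 4.75 ± 0.16 in ILCs (adjusted p = 9.92e-14, 4.39e-13 and 6.34e-14). ILCs stood above αβ T cells by 0.53 ± 0.15 (adjusted p = 0.0308), but the call was lost under 5 alternatives, with DESeq2 giving 0.52 (adjusted p = 0.106) and the 5% mitochondrial limit 0.07 (adjusted p = 0.944). In the isotype library alone this log2 ratio was 0.26, with a counting interval that held 0 (-0.10 to 0.60). In the anti-Skint1 library it was 0.69 (0.41 to 0.97). Gata3 and Rora are also known ILC genes, and the ILC rule used neither, though the ILC marker list holds both.

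Maf, which in γδ T cells acts upstream of the IL-17 programme, had a profile close to that of Rora. It stood at 30.0 and 30.3 CPM in DETCs, 397 and 359.9 CPM in αβ T cells, 391 and 377 CPM in IL-17 γδ T cells, and 358 and 257 CPM in ILCs. The log2 change over DETCs was 3.74 ± 0.12, 3.79 ± 0.13 and 3.42 ± 0.15 in the same order (adjusted p = 4.83e-14, 2.37e-13 and 2.98e-12). None of the 3 pairs among the other classes passed the test for Maf, with the largest difference at -0.37 ± 0.15 between ILCs and IL-17 γδ T cells (adjusted p = 0.246). At the 5% mitochondrial limit Maf in ILCs passed below αβ T cells, moving from -0.32 (adjusted p = 0.190) to -1.30 (adjusted p = 0.0396).

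Sox13, first known as a γδ lineage factor, was the member that stood apart in IL-17 γδ T cells. It gave 16 and 15 UMIs there, or 36.6 CPM (20.9 to 59.4) and 37.5 CPM (21.0 to 61.8), in 15 and 12 cells. αβ T cells had 6 and 3 UMIs, ILCs 0 and 2, and the far larger DETC class 11 and 15, or 0.818 and 0.927 CPM. Sox13 passed the filter on low counts through IL-17 γδ T cells alone, so a difference there was built into its presence among the 7154 genes, and the test is given with no filter. It was then higher in IL-17 γδ T cells than in DETCs by 5.46 (adjusted p = 5.13e-14) and than in αβ T cells by 2.76 (adjusted p = 0.0434), and ILCs were below IL-17 γδ T cells (log2 change -3.81, adjusted p = 0.0218). It was also higher in αβ T cells than in DETCs (2.70, adjusted p = 0.0179). With the filter the 4 changes were 5.47 ± 0.55, 2.77 ± 0.63, -3.75 ± 0.88 and 2.70 ± 0.75, and they passed there too, which is not read as support. In the filtered fit the difference between αβ T cells and DETCs did not hold without cells of more than 1 class (2.002, adjusted p = 0.217). Without those cells the difference between IL-17 γδ and αβ T cells was 4.21 (adjusted p = 0.0271), and that between ILCs and IL-17 γδ T cells was -3.79 (adjusted p = 0.122), which DESeq2 did not call either (-3.78, no adjusted p given). The call over αβ T cells was lost with no upper gene limit (2.66, adjusted p = 0.0681), with no library block (2.77, adjusted p = 0.0630) and without DETCs with Il7r (2.77, adjusted p = 0.050014).

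Tbx21 and Eomes were near the limit of detection and failed the filter on low counts. Tbx21 was found in 12 and 8 αβ T cells, with 13 and 10 UMIs (16.2 and 11.96 CPM). In DETCs it gave 2 and 4 UMIs (0.149 and 0.247 CPM), and in IL-17 γδ T cells and ILCs 0 in both libraries. The log2 ratio of αβ T cells over DETCs was 6.77 (4.63 to 9.96) and 5.60 (3.80 to 7.72) by counting error. With no filter on low counts, so that its entry did not depend on its level, Tbx21 was higher in αβ T cells than in DETCs by 6.01 ± 1.02 (edgeR, adjusted p = 9.31e-08). In the same fit the differences of IL-17 γδ T cells and ILCs from αβ T cells did not pass (adjusted p = 0.410 and 0.162). Over both libraries, Tbx21 in αβ T cells stood at 3.92 times the level that 3 UMIs would give in IL-17 γδ T cells. For ILCs it was 3.38 times. These folds leave out the counting error of the αβ T cells and are not lower bounds. With that error, the log2 ratio of IL-17 γδ T cells over αβ T cells reached up to -0.74 and -0.10 in the single libraries. That of ILCs over αβ T cells reached up to 0.02 and -0.31, so the isotype library did not exclude equal levels. With no upper gene limit the isotype ILCs were no longer at 0, and the difference of ILCs from αβ T cells missed the threshold (-2.36 ± 1.05, adjusted p = 0.234). Eomes, a defining factor of NK cells, gave 10 and 6 UMIs in DETCs, spread over 10 and 4 cells, and 0 in each other class. With so few UMIs the smaller classes could hold Eomes at up to 3.59 to 11.5 CPM unseen, above the 0.743 and 0.371 CPM of DETCs, so no difference between classes was detectable at this depth.

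Apart from Sox13, whose counts in IL-17 γδ T cells brought it into the test, 6 members passed the filter on low counts. All 6 were called between αβ T cells and DETCs (5 higher, 1 lower), where 34.5% of the 7154 genes tested were called. The same 6 were called between IL-17 γδ T cells and DETCs, against 29.5% of all genes, and between ILCs and DETCs, against 32.4%. Their median log2 change was 1.70, 1.93 and 1.92 in these comparisons, beside -0.04, -0.04 and -0.02 over all genes. Among the other classes 3 of the 6 were called between ILCs and αβ T cells, against 7.94% of all genes. Between IL-17 γδ and αβ T cells, where 1.02% of genes were called, and between ILCs and IL-17 γδ T cells, where 2.96% were, edgeR called 0 of the 6, as did DESeq2, although 2 and 3 of them had an unadjusted p under 0.05 in edgeR. Sox13 missed the threshold between ILCs and DETCs (1.72 ± 1.34, adjusted p = 0.368). Each call had the same direction in each library taken alone, which is no replication, as the calls were made from the same 2 libraries. Some single-library intervals held 0. Examples are Sox13 in αβ T cells over DETCs after anti-Skint1 (1.95, -0.48 to 3.77) and Gata3 in ILCs over αβ T cells after isotype (0.41, -0.08 to 0.88).

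**Figure D2:**
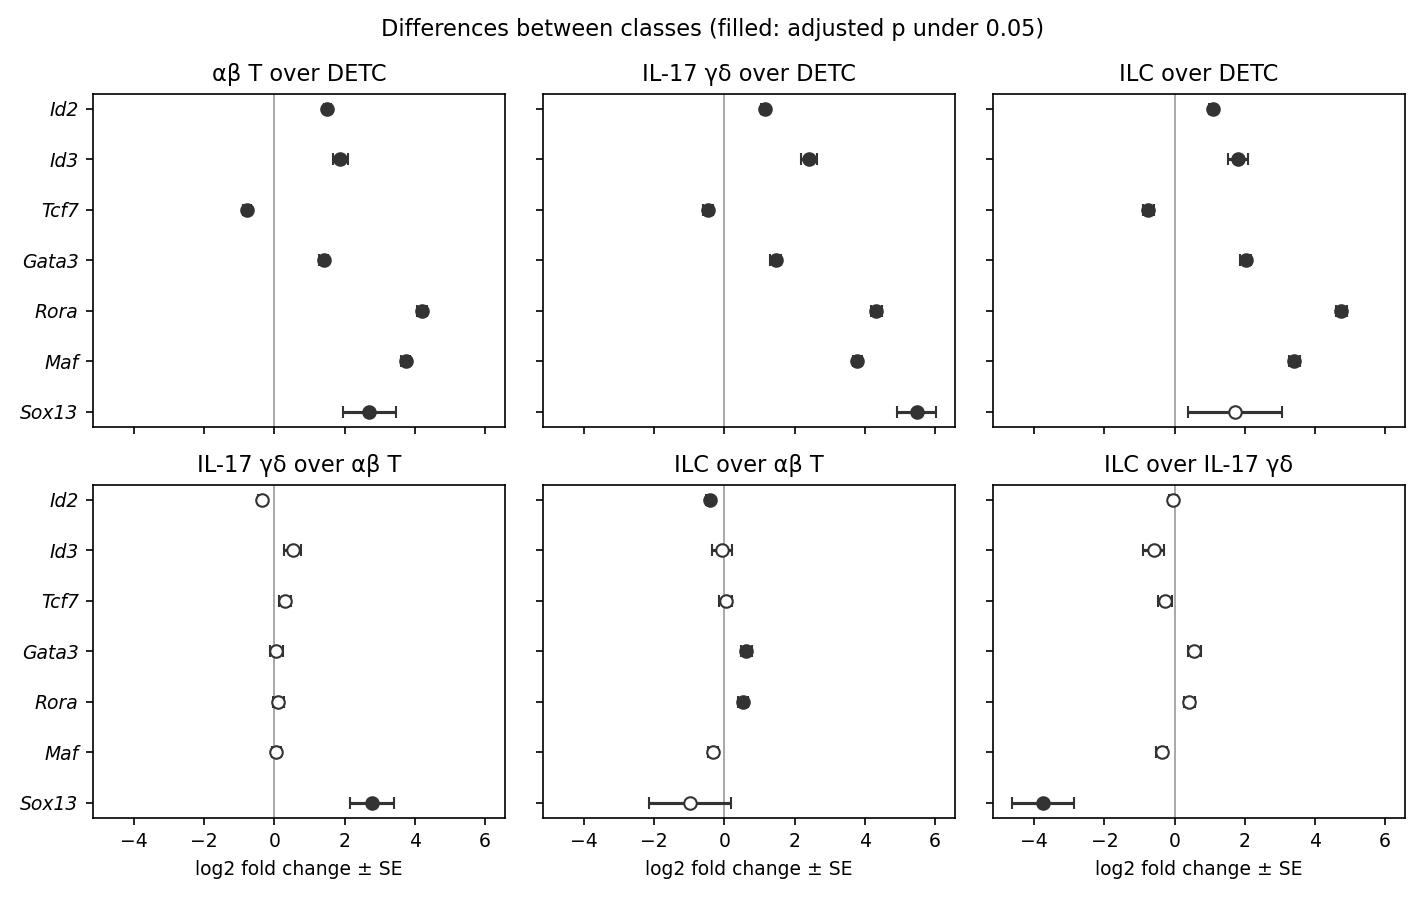
Log2 fold change between classes (points) with its standard error (bars) for the 7 genes tested, 1 panel per pair of classes, from edgeR's fit of 8 class sums. Filled points passed an adjusted p of 0.05 over all genes. In the upper row every gene but Tcf7 lies to the right of 0 (Rora at 4.22 to 4.75), and in the lower row most points lie near 0 apart from Sox13 (2.77 and -3.75).

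Other lineage factors were split in the same comparisons. Of 24 listed, 18 were tested, and 12 were higher and 4 lower in αβ T cells than in DETCs, 8 higher and 4 lower in IL-17 γδ T cells, and 6 higher and 4 lower in ILCs (median log2 change 0.95, 0.61 and 0.39). Over all genes tested, 16%, 14.2% and 15.6% were higher and 18.5%, 15.3% and 16.8% lower in the same order. The counts of lower factors lie near those shares and are not read as a result. Runx1 was higher by 5.78 ± 0.26, 5.91 ± 0.31 and 5.57 ± 0.36, whereas Runx3, its paralog in cytotoxic lymphocytes, was lower (-1.45 ± 0.15, -1.65 ± 0.18 and -2.20 ± 0.21, with adjusted p at most 9.82e-07). Nfil3 and Ahr, the latter a receptor needed for DETC maintenance, were also lower in all 3 classes than in DETCs, Ahr by -1.11 ± 0.13, -1.31 ± 0.17 and -1.55 ± 0.18.

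Lists of effector genes, each beside 29.5% to 34.5% of all genes called, were counted in the same way. Of 5 type 17 genes tested beside those in the class rules, 5 were higher in αβ T cells and 5 in IL-17 γδ T cells than in DETCs (median 3.21 and 4.97), and in ILCs Ccr6 was higher and Il17f, with 0 UMIs in both libraries, was lower. The IL-17 γδ rule uses Il17a, so the count in that class is not independent of the rule and is no support. Among αβ T cells, 25 of 197 and 17 of 213 met that rule too, and their part in the count was not tested. Of 8 type 1 genes tested, 3 were higher and 4 lower in αβ T cells, 2 and 5 in IL-17 γδ T cells, and 1 and 5 in ILCs (median -0.71, -2.19 and -4.04). Prf1 (perforin) and Nkg7 were lower than in DETCs in all 3. Ifng was higher in αβ T cells (3.79 ± 0.38, adjusted p = 5.40e-07). Of 6 type 2 genes, 3 were higher and 2 lower in αβ T cells, 4 and 0 in IL-17 γδ T cells, and 3 and 1 in ILCs, with Areg (amphiregulin) lower than in DETCs in αβ T cells (-0.98 ± 0.18) and ILCs (-1.35 ± 0.22). Of 4 genes of circulating or memory cells, the programme for which Tcf7 is best known, 4, 3 and 3 were higher than in DETCs and none lower, so Klf2 (2.96 ± 0.14 in αβ T cells) and Satb1 (2.89 ± 0.22) were opposite in direction to Tcf7. Of 3 E protein and Id genes that are not members, 0 were higher and 0 lower in αβ T cells, 0 and 1 in IL-17 γδ T cells, and 1 and 0 in ILCs.

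At equal depth the shares of cells with a UMI were in the same direction. After each cell was thinned to 1500 UMIs, 33.5% of isotype DETCs (31.9% to 35.2%, exact Clopper-Pearson) and 34.0% of anti-Skint1 DETCs had an Id2 UMI, against 54.3% to 64.7% in the other classes. Tcf7 was found in 24.2% and 27.9% of DETCs and in 12.3% to 23.6% of the other cells. In the isotype library its interval in ILCs (13.2% to 37.0%) and in IL-17 γδ T cells (14.2% to 33.0%) included the DETC value. Rora was found in 1.92% and 1.87% of DETCs but in 28.6% to 42% of the other cells, and Maf in 3.75% and 4.17% against 30% to 48.1%. Gata3 (7.78% and 8.10% of DETCs) and Id3 (2.46% and 2.85%) lay between these. A UMI of none of the 9 was found in 42.7% and 40.0% of DETCs, compared with 6.17% to 14.9% of the other classes, and 3 or more members were seen together in 1.70% and 2.28% of DETCs and in 26.2% to 33.3% of the others. Before thinning, the median depth was 4076 and 3605 UMIs in DETCs and 3581 to 5083 in the rest. As a check on free RNA, 12 anti-Skint1 barcodes with at least 20 keratin UMIs (median depth 7349 UMIs) were thinned in the same way: 0 had Id2 or Tcf7 (exact upper limit 26.5%), while 7 had Id3, 5 Maf, 4 Gata3 and 2 Rora (16.7%, 2.09% to 48.4%). Keratinocytes are known to use Gata3 and Id3 themselves, and only 2 such barcodes were found in the isotype library, so the DETC shares of Id3, Maf, Gata3 and Rora, which lie below these values, and that of Tcf7 in the isotype library, which lies below the limit, are not read as shares of expressing cells. From the keratin genes, free RNA would add 0.626 and 0.937 CPM of Rora to DETCs.

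**Figure D3:**
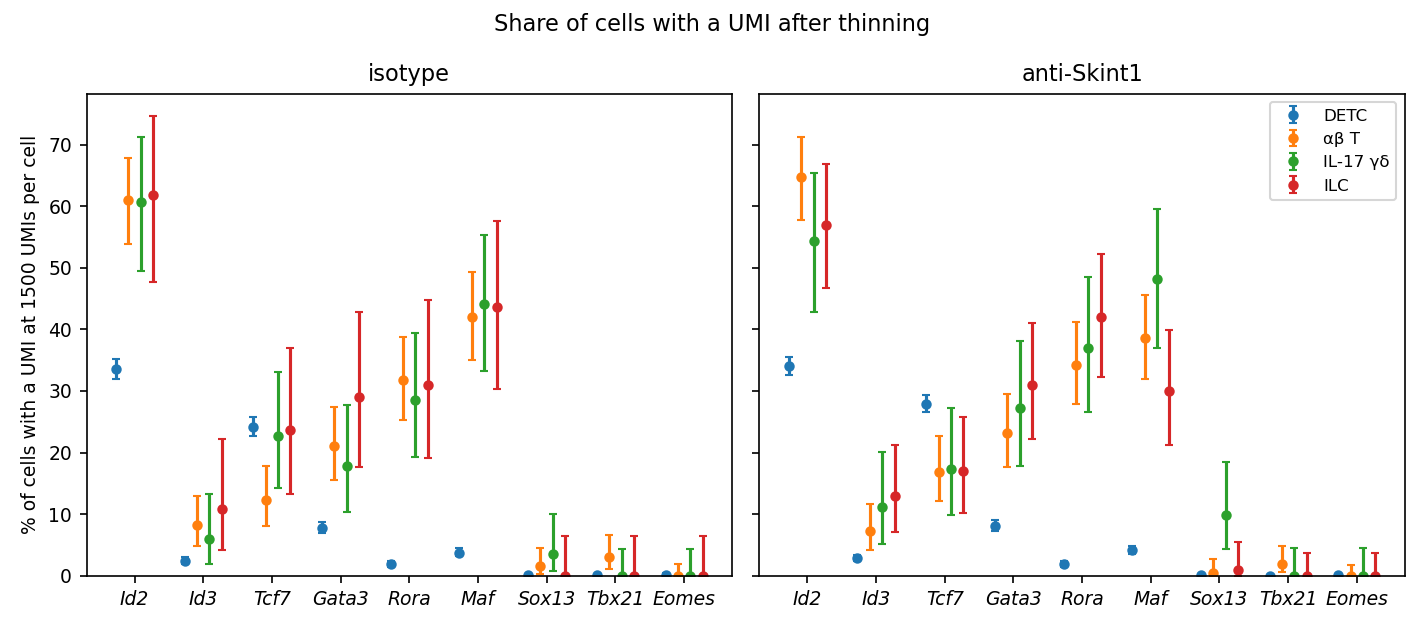
Share of cells (per cent, linear axis) with at least 1 UMI of each gene after thinning to 1500 UMIs per cell, by class (colour) and library (panel). Bars are exact Clopper-Pearson 95% intervals. Rora is found in 1.92% and 1.87% of DETCs and in at least 28.6% of every other class, and Tcf7 in 24.2% and 27.9% of DETCs.

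Within DETCs, Rora and Maf were concentrated in a few cells with Il7r, the IL-7 receptor gene that the DETC rule did not use. There were 49 such cells (1.53% of DETCs) in the isotype and 45 (1.06%) in the anti-Skint1 library, and they held 38.0% and 29.6% of all Rora UMIs of the class, 18.4% and 15.5% of Maf UMIs, and 7 of 11 and 6 of 15 Sox13 UMIs. Their Rora level was 334 CPM (270 to 409) and 304 CPM (238 to 383), against 11.5 and 10.7 CPM in DETCs without Il7r, a log2 ratio of 4.86 (4.47 to 5.24) and 4.83 (4.41 to 5.23). Maf stood at 266 and 321 CPM against 25.0 and 26.0 CPM (3.41 and 3.63), Gata3 at 212 and 216 CPM against 58.5 and 61.4 CPM (1.86 and 1.81), and Id2 at 575 and 570 CPM against 299 and 317 CPM (0.94 and 0.85). Tcf7 was lower in the cells with Il7r, at 144 and 135 CPM against 208 and 215 CPM (-0.54 and -0.67, with intervals of -1.02 to -0.09 and -1.22 to -0.17). Eomes had no UMI in them. For Rora, Maf, Gata3 and Tcf7 the level in the cells with Il7r was nearer to that of each of the 3 other classes than to that of other DETCs in CPM, and for Id2 this held for IL-17 γδ T cells and ILCs. Id3, at 39.5 and 54.9 CPM in the cells with Il7r against 18.4 and 20.8 CPM in other DETCs, was nearer to other DETCs than to IL-17 γδ T cells in both libraries and than to αβ T cells in the isotype library. ILCs did not stand out among them: Rora was at 338 and 275 CPM and Tcf7 at 149 and 129.9 CPM in IL-17 γδ T cells, a class that includes 12 of the cells with Il7r in each library.

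The DETCs with Il7r differed in other ways that move with this result. Their median depth was 5666 and 5263 UMIs against 4066 and 3597, their median CD3 count 23 and 34 UMIs against 67 and 61, and 26.5% and 20% of them had no Trdc UMI, against 0.0954% and 0.143% of the rest. Trdv4 rested on a single UMI in 38.8% and 55.6% of them, against 13.4% and 21.0%. The doublet score marked 14.3% and 40% of them against 3.27% and 4.11%, and 12 cells in each library met the IL-17 γδ rule too. The part of doublets and of stray Trdv4 UMIs in these values was not tested. Leaving these cells out of DETCs changed no call between DETCs and another class for the 6 members other than Sox13, all 6 being called in each of the 3 pairs, where 35%, 29.6% and 32.6% of the 7160 genes then tested were called, with Rora then at 11.5 and 10.7 CPM in DETCs.

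**Figure D4:**
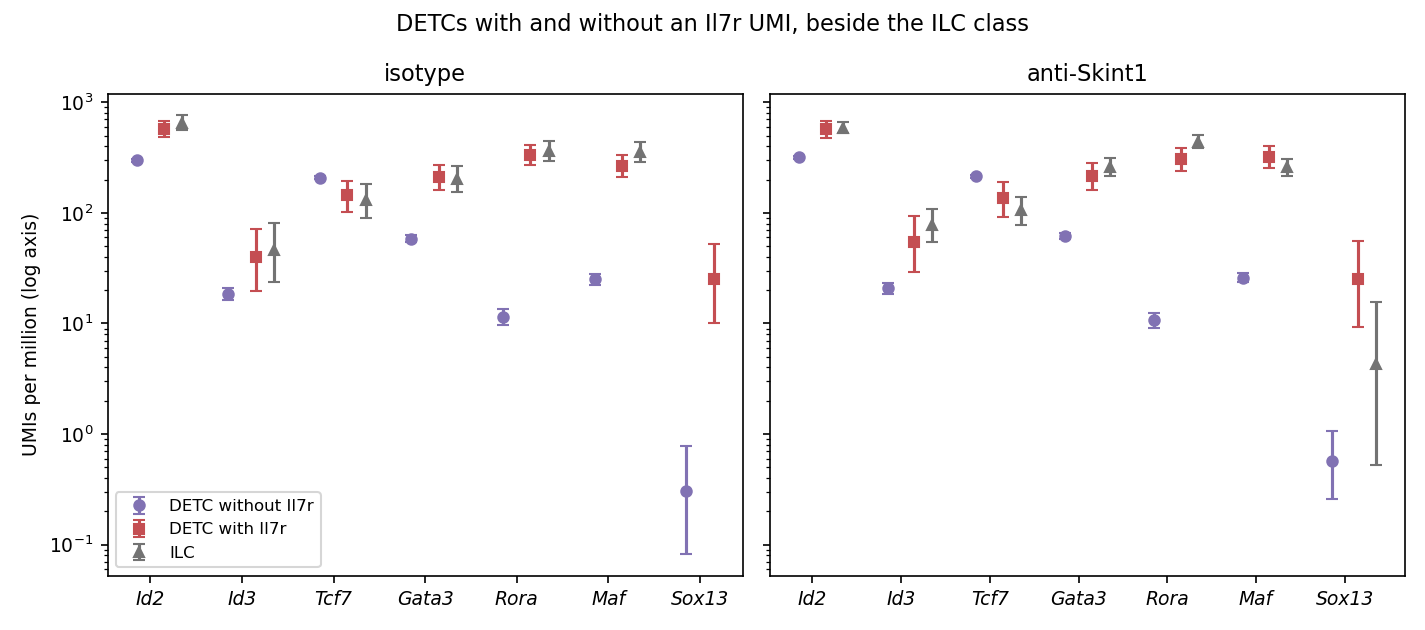
Level in CPM (log axis) of 7 of the genes in DETCs without Il7r (circles), DETCs with Il7r (squares) and ILCs (triangles), with exact Poisson 95% intervals, for each library. Sox13 in isotype ILCs is at 0 and not drawn. Rora and Maf in the DETCs with Il7r (334 and 266 in the isotype library) lie near the ILC values and far from the other DETCs (11.5 and 25.0).

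Cycling DETCs, the 77 cells in each library with at least 2 UMIs of 5 cell cycle genes, were compared with the other DETCs. Id2 stood at 292 and 263 CPM in cycling against 305 and 322 CPM in other DETCs, with an interval of the log2 ratio that excluded 0 in the anti-Skint1 library only (-0.57 to -0.02). Tcf7 was at 171 and 172 CPM against 208 and 215 CPM, and both intervals included 0 (-0.64 to 0.05 and -0.67 to 0.01), as did those of Rora, Gata3, Id3 and Maf, so that no difference in these was detectable at this depth.

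αβ T cells were split further by UMIs of Cd4, Cd8 and Foxp3. Most of them, 111 of 197 and 140 of 213, fell in none of these sets and had Maf at 367 and 304 CPM. Cells with Cd8 (25 and 17) had less Maf than cells with Cd4 and no Foxp3 (44 and 44): 136 and 99.9 CPM against 616 and 610 CPM, a log2 ratio of -2.18 (-3.07 to -1.39) and -2.61 (-3.96 to -1.52). Id2 followed the same direction (-0.77 and -0.89), with intervals below 0 in both libraries. Cells with Foxp3, the regulatory T cell factor (17 and 12 cells), had Rora at 737 and 759 CPM against 320.4 and 347 CPM in the Cd4 cells, a log2 ratio of 1.20 (0.61 to 1.79) and 1.13 (0.42 to 1.80), and Tcf7 at 14.7 CPM (1 UMI) against 113 CPM after isotype (log2 ratio -2.94, -8.32 to -0.28). In the anti-Skint1 library they had 0 Tcf7 UMIs, which could not be told from the 84.0 CPM of the Cd4 cells at this depth (upper bound of the log2 ratio 0.49). Tbx21 was seen in Cd4 cells (4 and 4 UMIs), Cd8 cells (4 and 5 UMIs) and the cells of no set (5 and 1 UMIs). It was seen in no cell with Foxp3, where the few cells could not have shown a difference (upper bounds of the log2 ratio to Cd4 cells 1.83 and 2.93). These ratios carry counting error only, since each set is a few cells of 1 library.

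To ask whether blocking Skint1 changed these factors, the libraries were compared within each class. With 1 library per treatment there is no test, treatment and library cannot be told apart, and a change is named when it passes 1.5-fold with at least 20 UMIs. In DETCs no member passed, where 6.36% of 11934 genes did. Rora went from 18.2 to 15.0 CPM (log2 ratio -0.28, exact conditional 95% interval -0.54 to -0.02) and Id2 from 305 to 320.3 CPM (0.07, 0.01 to 0.13), and these intervals excluded 0. Without the DETCs with Il7r the Rora ratio was -0.10, and without marked doublets it was -0.50. At the 5% mitochondrial limit Id2 was -0.0057, Maf 0.44 and Id3 0.42. Tcf7 (0.04, -0.03 to 0.12), Gata3 (0.04, -0.09 to 0.18), Maf (0.02, -0.18 to 0.21) and Id3 (0.18, -0.06 to 0.42) had intervals that held 0 and kept each within 1.5-fold.

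In αβ T cells no member passed 1.5-fold, against 18.9% of genes, and in IL-17 γδ T cells none, against 21.9%. Among members with at least 20 UMIs the ratios lay between -0.44 (Tbx21, -1.79 to 0.86) and 0.05 (Id2) in αβ T cells, and between -0.30 (Rora, -0.67 to 0.07) and 0.06 (Id3) in IL-17 γδ T cells. In ILCs, where 24.9% of genes passed, Id3 did, at 12 UMIs in the isotype and 36 in the anti-Skint1 library (46.2 and 77.9 CPM, 0.75, -0.22 to 1.83). It was 0.17 with no upper gene limit, where Gata3 (0.63) passed in its place, and turned to -0.69 under stricter class rules. Maf in ILCs fell short of 1.5-fold (358 and 257 CPM, -0.47, -0.88 to -0.07) and was 0.06 under stricter class rules, but it passed at the 5% mitochondrial limit (-1.48) and by the mean of per-cell CPM (-0.68). The 4 cells with Cd207 or H2-Aa held no UMI of either gene, and without them Maf was -0.44 and Id3 0.79.

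**Figure D5:**
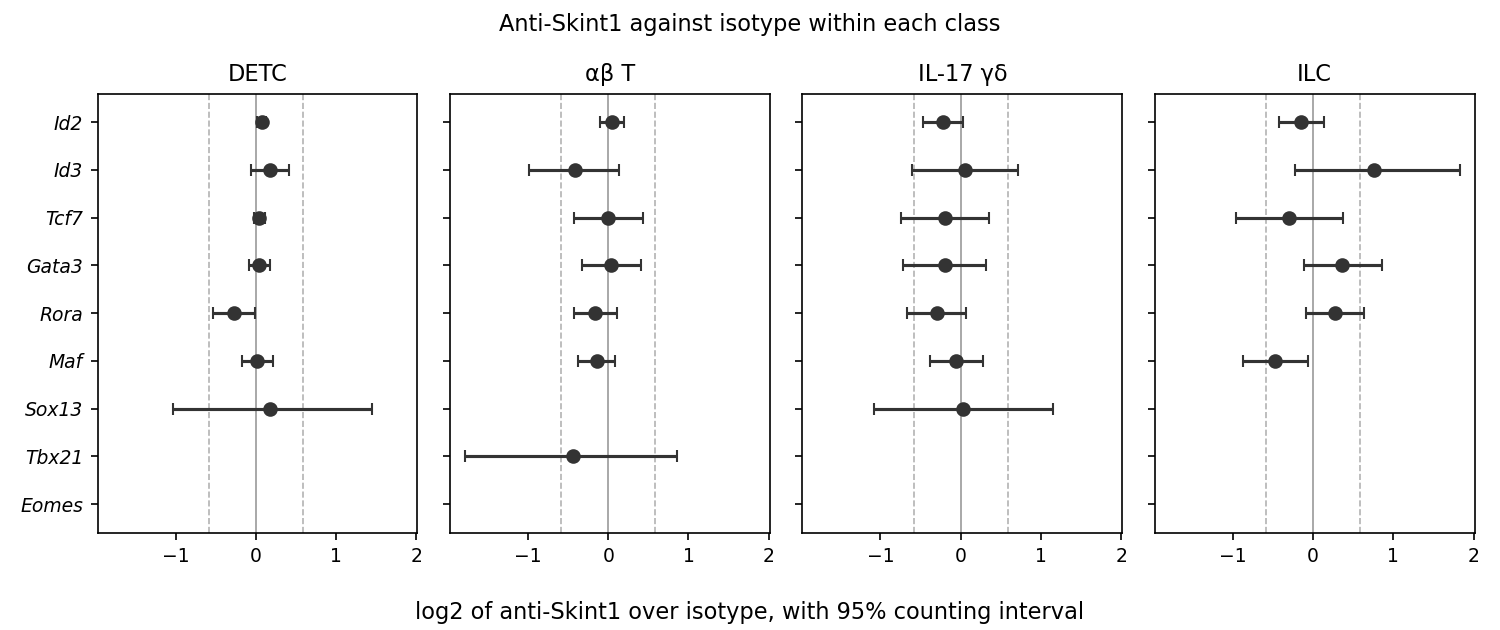
Log2 ratio of the anti-Skint1 over the isotype library within each class, with exact conditional binomial 95% intervals for counting error. Dashed lines mark 1.5-fold, and genes with fewer than 20 UMIs in a class are left out. In DETCs all points lie between -0.28 (Rora) and 0.18, and Id3 in ILCs (0.75) is the 1 point past a line.

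Over the 8 class and library sums, each member with at least 200 UMIs was set beside 8731 genes by Pearson's r of log2(CPM + 1). The 8 points come from 2 libraries and 4 classes that share cells, so r is a description. Nearest to Rora was Cotl1 (r = 0.999), an actin-binding protein gene, nearest to Maf was Gpr183 (r = 0.998), an oxysterol receptor gene, and nearest to Gata3 was Mtss1 (r = 0.995). Id2 was nearest to Ms4a6b (r = 0.996), Id3 to Ethe1 (r = 0.971) and Tcf7 to Rxra (r = 0.982), followed by Flrt3 (r = 0.980), which stood at 88.8 and 90.5 CPM in DETCs and 3.75 and 8.37 CPM in αβ T cells. Tbx21, Eomes and Sox13 had 29, 16 and 68 UMIs and were left out.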

How the data were processed

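Single-cell RNA was counted in 2 libraries. Reads were turned into UMI counts by the authors, who used CellRanger 3.0.2 with an mm10 index, and the deposited counts hold every barcode before any filter (27272211 and 32450957 UMIs). Chromosome positions come from GENCODE vM21 on GRCm38. The members and all gene lists were chosen with earlier results of these data known.

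Counts were summed per class and library, giving 8 sums. Classes were compared with edgeR 4.0.16 (R 4.3.3) by its quasi-likelihood test with TMM factors, filterByExpr, class and library as terms (3 residual degrees of freedom) and Benjamini-Hochberg adjustment over 7154 genes in each of 6 pairs, at 0.05. The script was tested on simulated data. Replicates are single libraries of different treatment. Treatments were compared by ratio, with no test. Levels, shares and thinning used Python 3.11.15, numpy 2.4.6, scipy 1.17.1 and pandas 2.3.3. Scrublet (scanpy 1.11.5) at its own threshold marked 1 and 0 barcodes, so the top scores were marked at 0.8% per 1000 barcodes (177 and 330) and kept, except under an alternative. The text names the 9 members, genes of 6 fixed lists, and the 3 genes nearest to each member, of which it prints some. Alternatives were DESeq2 1.42.0, other scaling, filters, cell limits, class rules and thinning depths. The study's clustering was not used here. The result of 1 listed gene is not reported here, though the list counts include it.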

Additional observations from a re-analysis of the deposited data

Results flagged for a closer look

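Members were also found in cells that the class rules leave out, 756 in the isotype and 1375 in the anti-Skint1 library, which enter no comparison. A level is given here where it rests on more than 3 UMIs. In those cells Rora stood at 121 CPM in the isotype and 79.7 CPM in the anti-Skint1 library, Gata3 at 104 and 101 CPM, Maf at 103 and 82.4 CPM, Id2 at 393 and 379 CPM, Id3 at 30.6 and 54.3 CPM, and Tcf7 at 198 and 187 CPM. For Rora, Gata3, Maf and Id2 these levels lay between those of DETCs and of the other classes. Tbx21 gave 1.35 and 1.16 CPM, Sox13 1.35 CPM in the isotype library and Eomes 0.969 CPM in the anti-Skint1 library. Cells of no class hold cells without a detected receptor gene, and what kinds of cell they are was not tested.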

How the results depend on the processing

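Class differences, counts of members, shares of cells and treatment ratios were recomputed, each under the alternatives that can bear on it, whereas subset ratios, list counts, free RNA and nearest genes were not. Of the alternatives, 2 (leaving out cells with Cd207 or H2-Aa from every class, and cells with Il7r from DETCs) were chosen after seeing the data. Counts of members called against DETCs stayed within 1.5 times throughout, as did the members with the highest (2) or lowest (6) share of cells in DETCs, although with another thinning depth or none 102 share values moved and 114 did not. Between IL-17 γδ and αβ T cells the 1 call (Sox13) became 0 with no upper gene limit, no library block, or without Il7r cells. With a mitochondrial limit of 5% or stricter class rules Sox13 failed the filter and 6 members were tested, of which 0 and 1 (Id2) were called. Between ILCs and αβ T cells 3 calls became 0 without cells of more than 1 class and 1 under stricter class rules. Between ILCs and IL-17 γδ T cells the 1 call (Sox13) became 0 without cells of more than 1 class and with DESeq2 (no adjusted p given), and 0 of the 6 members tested were called with the 5% limit or stricter class rules. Id3 in ILCs over αβ T cells turned from -0.07 to 0.85 with no upper gene limit and passed there.

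Between treatments, members past 1.5-fold went from 0 to 1 in DETCs (Eomes) with no upper gene limit, from 0 to 1 in αβ T cells (Id3) with the 5% limit or stricter class rules, and from 0 to 1 in IL-17 γδ T cells with no upper gene limit (Rora, -0.75), without cells of more than 1 class (Id3) or under stricter class rules (Id3). In ILCs the 1 (Id3) was Gata3 with no upper gene limit, and it became 0 at 2-fold and 2 with the 5% limit, stricter class rules (where Id3 was -0.69) or the mean of per-cell CPM. The 5% limit left 11 ILCs in each library, 31 and 12 IL-17 γδ T cells, and 94 and 79 αβ T cells. Stricter rules left 16 and 35 ILCs, 38 and 43 IL-17 γδ T cells, and 95 and 74 αβ T cells. They asked for no CD3 or Trdc UMI in ILCs, and for no Trdv4 or Trac UMI in IL-17 γδ T cells. In αβ T cells they asked for at least 2 Trac UMIs, a Trbc1 or Trbc2 UMI, and no Trdc UMI. The cause of the other changes was not tested. Leaving out 1 library gave no test, so no counts. No paired analysis was possible because each treatment had 1 library, while class differences had library as a term. Counts of 0 to 3 UMIs limit Tbx21, Eomes and Sox13.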
